A study of Mus musculus with 30 samples.

Results

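The clustered protocadherins are cell-surface adhesion proteins of the cadherin superfamily, encoded by 3 neighbouring gene clusters (alpha, beta and gamma) on mouse chromosome 18. In the alpha and gamma clusters each variable exon has its own promoter and is spliced to constant exons shared by the whole cluster, whereas each beta gene is a complete gene of its own. Neurons are known to choose a few of the variable promoters each, and the chosen proteins bind identical copies on other cells, which lets a neuron recognise its own branches. The C-type genes (Pcdhac1, Pcdhac2, Pcdhgc3, Pcdhgc4 and Pcdhgc5) are known to be used more uniformly than the variable ones.

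All 58 listed alpha, beta and gamma protocadherin symbols were taken as members, of 45706 genes in the RNA files. Of these, 57 symbols matched a gene ID, and because the symbol Pcdha11 stood on 2 IDs (ENSMUSG00000007440 and ENSMUSG00000102206) there were 58 gene IDs, 14 in the alpha, 22 in the beta and 22 in the gamma cluster. Pcdha10 was matched to no ID and its RNA is not reported; the Pcdha11 IDs are given apart, each by its ID. On the mm10 genome build the alpha cluster runs from 36930285 to 37188897 on chromosome 18, the beta cluster from 37264998 to 37521419 and the gamma cluster from 37661775 to 37841873.

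RNA-seq was read in 8 libraries, 2 in each of 4 groups. The ES group is wild-type mouse embryonic stem cells. The other 3 groups are motor neurons (MN) induced from such cells over 6 days with retinoic acid (1 uM) and the Smoothened agonist SAG (1 uM), to which doxycycline (1 uM) and the gamma-secretase inhibitor DAPT (5 uM) were added for the last step: wild-type MN, and 2 lines called HD and EH that share the genotype label Mnx1KO. Mnx1 is a homeodomain transcription factor of motor neurons. What was deleted in HD and in EH, how many clones each line stands for, and what the doxycycline switches on are not given in the sources used here. Nothing in the labels says whether the libraries of a group came from separate cultures, so the p-values measure the spread between these libraries, which may be technical. ChIP-seq was made from wild-type and HD motor neurons, with 2 libraries per genotype for H3K4me3, H3K27ac, H3K27me3 and H3K4me1, 1 per genotype for H3K9me3, and 2 for Mnx1 in wild type. No ChIP-seq of EH or ES cells was analysed here.

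Total expected counts per library were 53223300 and 51304515 in ES, 13916957 and 13899577 in wild-type MN, 11167544 and 12435800 in HD and 39761579 and 39685395 in EH. Mnx1 RNA stood at 0.36 and 0.29 TPM (a level scaled for gene length and library depth) in ES, 395 and 343 in wild-type MN, 377 and 313 in HD, and 446 and 565 in EH; since the deleted part is not known here, this level does not check the knockout labels. The 8 motor neuron markers summed to 2.40 and 2.62 TPM in ES against 1777 and 1499 in wild-type MN, and the 10 pan-neuronal markers to 308 and 244 against 6204 and 5911. The MN cultures also held RNA of other kinds: 4 placental trophoblast markers, all at 0 in ES, summed to 528 and 449 TPM in wild-type MN, 419 and 547 in HD, and 84.2 and 23.1 in EH.

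In motor neurons nearly all of the family was expressed, and the alpha and beta clusters went from close to 0 to a large part of its RNA. Summed over its members, the alpha cluster stood at 0.150 and 0.440 TPM in the ES libraries and at 58.0 and 57.3 in the wild-type MN libraries. The beta cluster stood at 0.620 and 1.48 TPM in ES and at 161 and 157 in wild-type MN. The gamma cluster was already present in ES, at 23.5 and 23.4 TPM, and reached 189 and 170 in wild-type MN. Gamma RNA thus made up a mean of 94.6% of the family's TPM in ES and 45.2% in wild-type MN, where beta held 40.2% and alpha 14.6%. The ratio of wild-type MN to ES was 195 ± 136 for alpha, 152 ± 87.9 for beta and 7.66 ± 0.565 for gamma (ratio of means, SD from the spread of both groups, n = 2 and 2). The alpha and beta ratios rest on very small ES values: without ES replicate 2 they were 384 and 257, without ES replicate 1 they were 131 and 108. In these bulk samples, fewer cells of a type and less RNA per cell cannot be told apart.

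**Figure D1:**
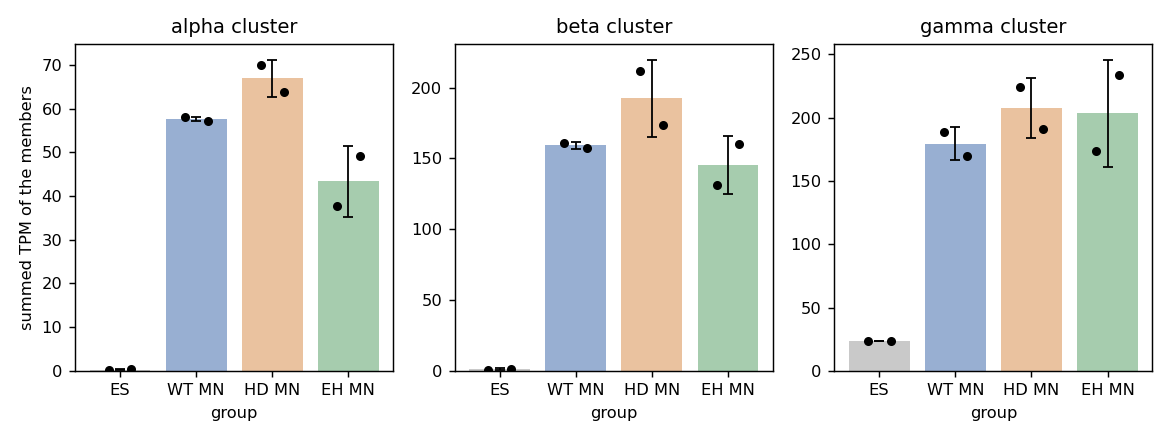
Summed TPM of the members of each cluster (y axis, from 0) in ES cells and in wild-type, HD and EH motor neurons; bars are group means, error bars SD of 2 libraries, points the libraries. Alpha and beta are near 0 in ES (0.150 to 1.48 TPM), gamma is not (23.4 and 23.5 TPM), and the EH libraries lie farther apart from each other than the wild-type libraries do in all 3 clusters.

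Against ES, the test across all genes (edgeR's quasi-likelihood test, Benjamini-Hochberg adjusted p under 0.05) called 57 of the 58 gene IDs higher and 1 lower in wild-type MN. Of all 17770 genes tested, 38.8% were called higher and 36.5% lower, 75.3% in all. For 57 members both wild-type MN libraries lay above both ES libraries in TPM, as they did for 59.4% of all genes tested. The median fitted log2 fold change was 7.34 over alpha, 6.83 over beta and 2.48 over gamma, against 0.02 over all genes tested. Most alpha and beta genes had few or no ES counts and could pass the filter on low counts only through the MN libraries. Their number called and their adjusted p against ES are a description of that and not a support. With genes without ES counts set at a floor of 3 counts over both libraries, the median log2 fold was 6.07 for alpha, 6.83 for beta and 2.48 for gamma. On log2(TPM + 1), where the median of all tested genes lies 0.43 higher in wild-type MN, 56 members were called higher and none lower, Pcdha8 and Pcdhga1 being the others (over all genes 9043 higher and 4025 lower, against 6898 and 6484 from counts).

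The alpha genes encode the CNR-type receptors that bind the kinase Fyn and its relatives. Pcdha4 stood at 0.01 and 0.06 TPM in ES and at 7.47 and 8.94 in wild-type MN, higher by 7.96 ± 0.31 on the log2 scale (SE; edgeR adjusted p 2.72e-07). The ID ENSMUSG00000102206, listed as Pcdha11, had no counts in ES and 11.1 and 10.1 TPM in wild-type MN, at least 697-fold higher. The other Pcdha11 ID, ENSMUSG00000007440, stood at 0.01 and 0.03 TPM in ES and 8.76 and 8.16 in wild-type MN. These 3 were the highest alpha genes in wild-type MN, and their wild-type libraries did not overlap the ES libraries. The lowest were Pcdha8 (0.14 and 0.21 TPM), Pcdha7 (0.48 and 0.52 TPM) and Pcdha6 (0.61 and 0.55 TPM), which stand next to each other in the middle of the variable array. Between them and the top lay Pcdha1, Pcdha2, Pcdha3, Pcdha5, Pcdha9 and Pcdha12, with means from 1.51 to 6.38 TPM.

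Of the alpha C-type genes, Pcdhac2, known for the spacing of serotonergic axons, stood at 0.01 and 0.04 TPM in ES and 3.77 and 3.72 in wild-type MN. Pcdhac1 stood at 0.02 and 0.01 TPM in ES and 0.97 and 0.93 in wild-type MN. Both were called higher, by 6.33 ± 0.37 and 5.55 ± 0.46 on the log2 scale (edgeR adjusted p 1.56e-06 and 1.06e-05). Both lay below the highest variable alpha genes in every wild-type MN library.

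Among the beta genes Pcdhb6 was highest, at 0.02 and 0.05 TPM in ES and 18.95 and 18.83 in wild-type MN. Pcdhb2 followed with 0.07 and 0.30 TPM in ES and 17.91 and 17.97 in wild-type MN, and Pcdhb11 with 0.01 and 0.01 in ES and 16.6 and 15.8 in wild-type MN. The wild-type MN libraries of these 3 did not overlap one another, so their order was the same in both libraries. Pcdhb11 had the smallest adjusted p of the family (1.01e-07 by edgeR), which with 2 ES counts is a description and not a support. Against its 1111 wild-type MN counts the ratio was 1744, with an exact 95% counting interval from 479 to 14300. Pcdhb20, Pcdhb16 and Pcdhb21, with 11.5, 6.53 and 3.54 TPM on average in wild-type MN, were the other beta genes among the 8 smallest adjusted p. At the low end were Pcdhb1 (0.46 and 0.71 TPM) and Pcdhb14 (0.64 and 0.63 TPM). Between these ends lay the other 14 beta genes, from 1.22 TPM (Pcdhb9) to 12.9 TPM (Pcdhb3) in single wild-type libraries.

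The gamma genes were the part of the family that ES cells already transcribed. Pcdhgc4, known as the isoform that neurons need to survive, stood at 6.79 and 2.87 TPM in ES and 21.9 and 13.5 in wild-type MN. Pcdhgc3, a C-type isoform known to bind Axin1 and promote dendrite branching, stood at 3.29 and 4.46 TPM in ES and was the highest member in wild-type MN with 40.0 and 34.7. Both rose, by 2.13 ± 0.42 and 2.65 ± 0.17 on the log2 scale (edgeR adjusted p 0.00184 and 2.56e-06). The libraries of a group lay far apart for Pcdhgc4, also in HD (22.4 and 10.4 TPM). Pcdhgc5, at 0.32 and 0.33 TPM in ES and 2.48 and 1.91 in wild-type MN, rose by 2.02 ± 0.26 (edgeR adjusted p 0.000163) and stayed among the lowest of the cluster.

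Among the gamma A and B genes, Pcdhga7 was highest in wild-type MN (15.1 and 15.9 TPM, against 0.55 and 0.74 in ES). Pcdhgb6 rose from 0.20 and 0.26 TPM to 9.87 and 11.3 (4.87 ± 0.20 on the log2 scale, edgeR adjusted p 3.44e-07). Both lay well above their ES libraries. Pcdhga1, the first gene of the cluster, was the exception: 2.36 and 2.55 TPM in ES against 2.51 and 1.72 in wild-type MN, libraries that overlap. It was the only member called lower, by -0.61 ± 0.23 on the log2 scale with an edgeR adjusted p of 0.0365. That call was lost on log2(TPM + 1), without the filter on low counts, with the replicate number as a block, and without wild-type MN replicate 2 (adjusted p 0.269 by edgeR), ES replicate 1 (0.0547) or ES replicate 2 (0.0966). Across all alternatives its adjusted p ran from 0.0211 (edgeR) to 0.423 (limma-trend).

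In all, 52 of the 58 gene IDs reached 1 TPM in each wild-type MN library, 54 and 52 in the HD libraries, 49 and 50 in the EH libraries and 6 in each ES library. By class, gamma A genes summed to 86.96 and 82.49 TPM in wild-type MN, gamma B genes to 37.37 and 37.41 and gamma C genes to 64.41 and 50.17. Most of the gamma C level came from Pcdhgc3.

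**Figure D2:**
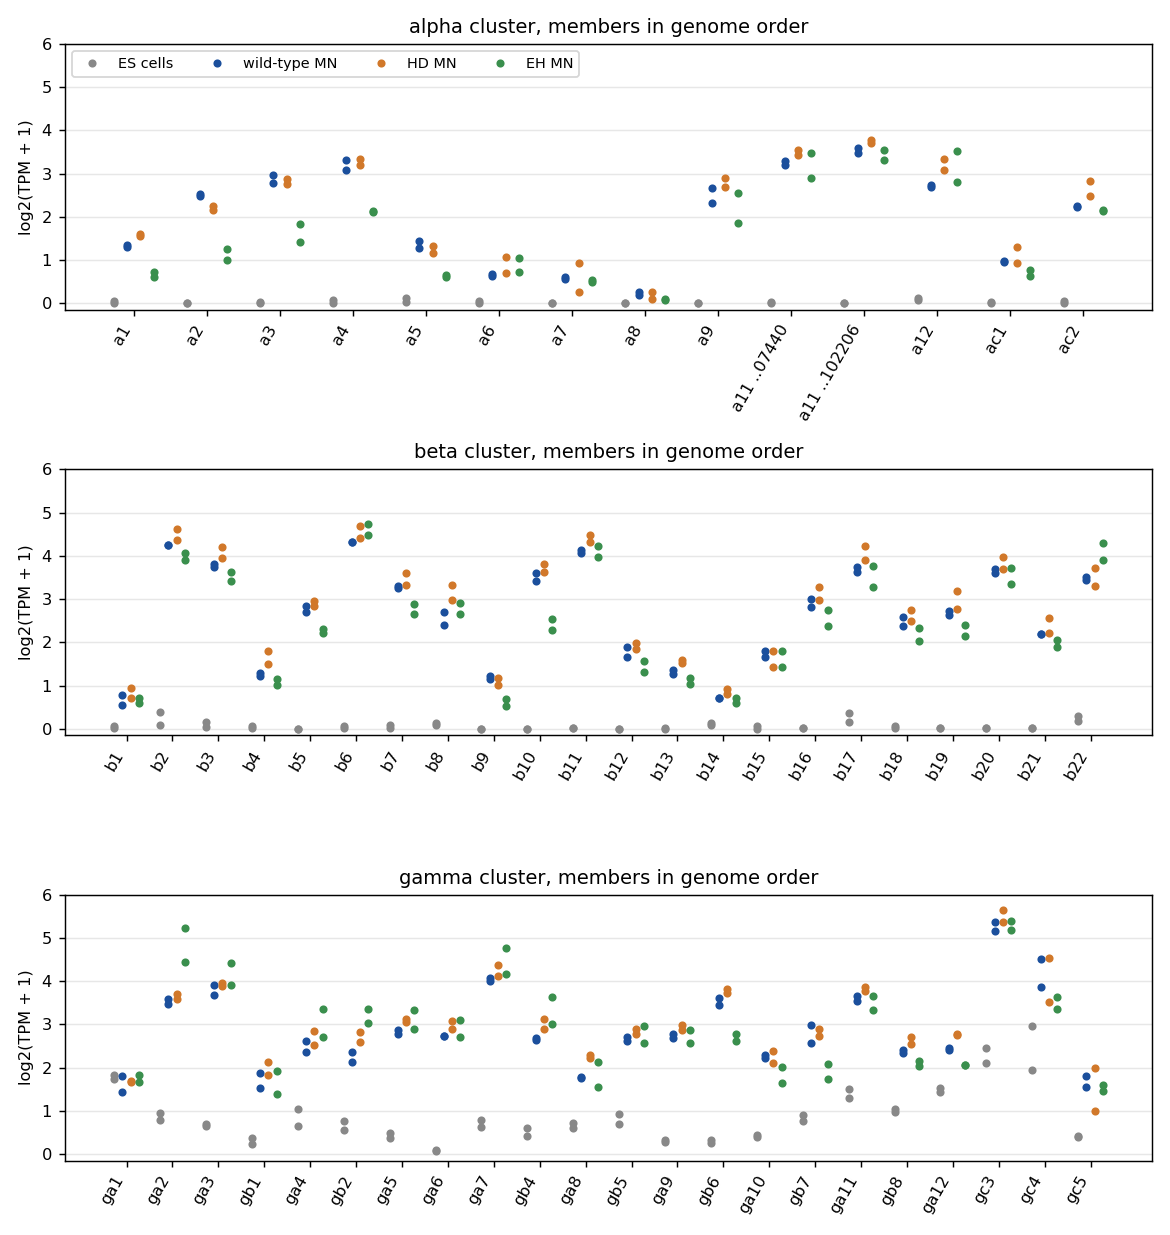
Level of each member as log2(TPM + 1) (y axis) in genome order, 1 panel per cluster; each point is a library, coloured by group, with the Pcdha11 IDs side by side under the last digits of their IDs. Alpha and beta members lie near 0 in ES while several gamma members do not, and the middle alpha genes Pcdha6 to Pcdha8 stay low in all motor neuron groups.

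The relative levels of the members were alike in the wild-type libraries and in HD. Across the 22 beta genes, Spearman's rho between the wild-type MN replicates was 0.985, between wild-type and HD means 0.989, between wild-type and EH means 0.940, and between wild-type MN and ES means 0.292. For the 22 gamma genes the same values were 0.948, 0.970, 0.808 and 0.249, and for the 14 alpha IDs 0.987, 0.978, 0.859 and 0.181. These correlations are across genes that share libraries and are given as a description.

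How well reads can be told apart between close copies differed between the clusters. The authors' tables give for each gene a posterior standard deviation of its count, the uncertainty left by reads that fit several transcripts. In the wild-type MN libraries it had a median of 0.303% of the count over beta genes, 7.07% over alpha and 6.53% over gamma genes, against 0% over all genes with 10 counts. The largest shares among genes with at least 10 counts in both libraries were 25.4% for Pcdha6, 22.9% for Pcdha7, 15.7% for Pcdhac1, 13.2% for Pcdha1 and 12.7% for Pcdha5. In gamma they ran from 2.63% for Pcdhgc3 to 11.4% for Pcdhga1. Reads from the constant exons are shared by all genes of the alpha or the gamma cluster, and how they were divided among them rests on the authors' counting. Levels of alpha and gamma members are therefore less certain than those of beta members, and those of the genes named here with 11.4% or more are to be read as uncertain.

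In HD motor neurons no member was called different from wild type. Summed levels were 70.0 and 63.9 TPM for alpha, 212 and 173 for beta and 224 and 191 for gamma in HD, against 58.0 and 57.3, 161 and 157, and 189 and 170 in wild type. The HD libraries thus lay above the wild-type libraries in all 3 clusters, with ratios of 1.16 ± 0.076, 1.21 ± 0.17 and 1.16 ± 0.16 (SD from both groups, n = 2 and 2). Of the 57 gene IDs tested by edgeR (Pcdha8 was too low), 0 had an adjusted p under 0.05, where 0.173% of all 15565 genes were called; 7 had an unadjusted p under 0.05, and DESeq2 and limma-trend also called 0, with 5 and 2 at an unadjusted p under 0.05. Fitted on the 4 libraries of these groups alone, edgeR called 0 as well, with 22 at an unadjusted p under 0.05. Of all genes 0.135% were called higher and 0.0385% lower. The median fitted log2 fold change was 0.28, and 50 of 57 were positive, against 46.6% of all genes tested. For 36 members both HD libraries lay above both wild-type libraries in TPM, and for 1 (Pcdha2) both lay below; over all genes these shares were 18% and 23.6%. The pan-neuronal markers lay the same way, with 9 of 10 positive and a median of 0.22 on the log2 scale, none called. The motor neuron markers were positive for 2 of 8 and the endoderm markers for 0 of 5, also with none called. Of the pluripotency markers 0 of 8 were positive (median -0.54 on the log2 scale), none called. Of the cycling or progenitor markers 1 of 7 tested was positive (median -0.22), none called. The part of these markers in the members' levels was not tested.

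Single members in HD show the size of these differences. Pcdhac2 stood at 6.10 and 4.64 TPM in HD against 3.77 and 3.72 in wild type, 0.53 ± 0.17 higher on the log2 scale (edgeR adjusted p 0.612). Pcdhgc3 stood at 49.1 and 40.1 TPM against 40.0 and 34.7 (0.27 ± 0.13, edgeR adjusted p 0.975). The Pcdhac2 libraries do not overlap between the groups and, in HD as in wild type, Pcdhgc3 was the highest member. Pcdhgc5 had the most negative value, -0.81 ± 0.27 (edgeR adjusted p 0.649), with 2.97 and 1.00 TPM in HD against 2.48 and 1.91 in wild type, which overlap. The genes at the top of each cluster, Pcdhb6 (24.9 and 20.3 TPM in HD), Pcdhb2 (23.5 and 19.6), Pcdhb11 (21.4 and 18.8), Pcdhga7 (19.7 and 16.5), Pcdha4 (9.18 and 8.25) and the Pcdha11 IDs ENSMUSG00000102206 (12.7 and 12.2) and ENSMUSG00000007440 (10.8 and 9.84), had fitted log2 fold changes from 0.08 to 0.39. A p that misses the threshold does not show that the levels are equal.

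In EH motor neurons members were called in both directions, in all at close to the rate of all genes tested (21.2%). Pcdha1 to Pcdha5, the 5 genes at the upstream end of the alpha array, were all called lower, while none of the tested genes from Pcdha6 to Pcdhac2 was called. Summed over Pcdha1 to Pcdha5 the level was 21.2 and 23.6 TPM in wild type, 22.3 and 21.3 in HD and 8.49 and 7.22 in EH, a ratio of EH to wild type of 0.351 ± 0.048. Summed over Pcdha6 to Pcdha12 it was 32.1 and 29.0 TPM in wild type and 25.2 and 37.7 in EH, a ratio of 1.03 ± 0.30. This split of the alpha genes was chosen after their values were seen. For the whole alpha cluster the EH libraries stood at 37.6 and 49.1 TPM (ratio 0.753 ± 0.14), both below the wild-type libraries.

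By edgeR, 10 of the 57 members tested were lower and 3 higher in EH than in wild-type MN, where 11.6% of all genes were called lower and 9.61% higher, 21.2% in all. In TPM both EH libraries lay above both wild-type libraries for 10 members and below for 27, against 28.1% and 32.5% of all genes. Of the 57 values 19 were positive, against 50.3% of all genes. The median log2 fold change was -0.15 over the members and 0.00 over all genes tested. Pcdha4 had the smallest adjusted p: 3.35 and 3.41 TPM in EH against 7.47 and 8.94 in wild type (-1.30 ± 0.14 on the log2 scale, adjusted p 0.00492 by edgeR). Pcdha2 fell most, to 1.39 and 1.00 TPM from 4.77 and 4.63 (-1.94 ± 0.22, adjusted p 0.00524 by edgeR). Pcdha3 (2.56 and 1.68 TPM in EH, 5.95 and 6.80 in wild type), Pcdha5 (0.53 and 0.59 against 1.42 and 1.74) and Pcdha1 (0.66 and 0.54 against 1.54 and 1.47) fell by 1.57, 1.47 and 1.33 on the log2 scale. In each of these 5 genes the EH libraries lay below every wild-type and HD library.

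The other calls lay in the beta and gamma clusters. Pcdhb10 stood at 3.84 and 4.83 TPM in EH against 11.1 and 9.67 in wild type (-1.24 ± 0.17, edgeR adjusted p 0.00744), and its upstream neighbour Pcdhb9 at 0.43 and 0.62 against 1.32 and 1.22 (-1.24 ± 0.31, edgeR adjusted p 0.0346). Pcdhb5 was also called lower, with 3.93 and 3.63 TPM against 6.11 and 5.50. Pcdhb22, the last beta gene, was called higher, with 14.0 and 18.5 TPM against 10.5 and 9.85 (0.66 ± 0.18, edgeR adjusted p 0.0414). Next to these, the adjacent Pcdhb11 stood at 14.6 and 17.7 TPM in EH and 16.6 and 15.8 in wild type, which overlap.

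Of the 22 gamma genes 2 were called higher and 2 lower, near the shares of all genes (9.61% and 11.6%). Those called higher lay upstream of those called lower, an order read off after the values were seen. Pcdhga2, the second gene of the cluster, stood at 20.9 and 36.5 TPM in EH against 10.95 and 10.04 in wild type (1.47 ± 0.25, edgeR adjusted p 0.0112), and Pcdhgb2 at 7.24 and 9.19 against 3.38 and 4.12 (1.11 ± 0.19, edgeR adjusted p 0.0116). Pcdhgb6 stood at 5.11 and 5.90 TPM against 9.87 and 11.3 (-0.92 ± 0.14, edgeR adjusted p 0.00876) and Pcdhgb7 at 2.33 and 3.26 against 6.88 and 4.98 (-1.06 ± 0.22, edgeR adjusted p 0.0197). The cluster as a whole stood at 174 and 233 TPM in EH, which overlaps the wild-type range. The C-type genes were not called: Pcdhgc3 stood at 35.6 and 40.8 TPM in EH (0.05 ± 0.13), Pcdhgc4 at 11.4 and 9.29 (-0.67 ± 0.30), Pcdhgc5 at 2.02 and 1.77 (-0.20 ± 0.25), Pcdhac2 at 3.39 and 3.46 (-0.11 ± 0.17) and Pcdhac1 at 0.55 and 0.70 (-0.60 ± 0.30). Of the highest genes named above, Pcdhb6 (21.4 and 25.8 TPM), Pcdhb2 (14.0 and 15.8), Pcdhga7 (17.1 and 26.3) and the Pcdha11 IDs ENSMUSG00000102206 (8.98 and 10.6) and ENSMUSG00000007440 (6.42 and 10.2) were not called in EH either.

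The EH count depends on single libraries. Without wild-type MN replicate 1 only Pcdha4 was still called (1 gene), without wild-type MN replicate 2 none was, without EH replicate 1 there were 12 higher and 10 lower, and without EH replicate 2 there were 2 higher and 15 lower. The median log2 fold change of the members was 0.06 without EH replicate 1 and -0.35 without EH replicate 2, so its sign rests on EH replicate 1. All 13 genes kept their direction in each of these 4 fits. Pcdha4 ranged from -1.44 to -1.15 and Pcdhga2 from 1.02 to 1.82 on the log2 scale. The trophoblast markers moved with this comparison, with 4 of 4 called lower in EH (that list was named after earlier results of these data). Of the 5 endoderm markers 3 were called lower (Krt8, Krt18 and Epcam) and 2 were positive and not called (Sox17 and Afp). The list summed to 1149 and 1429 TPM in wild type and 685 and 469 in EH, most of it Krt8 and Krt18. Sox17 stood at 3.65 and 2.83 TPM in wild type and 3.26 and 8.42 in EH. Afp stood at 0.92 and 0.52 TPM in wild type and 3.63 and 0.52 in EH. Of the motor neuron markers 1 of 8 was called higher (Isl1), and of the pan-neuronal markers 1 of 10 was called higher and 2 lower. No pluripotency or cycling marker was called, but their sums differed between the EH libraries. The pluripotency markers summed to 212 and 84.1 TPM in EH and 140 and 151 in wild type. The cycling or progenitor markers summed to 489 and 247 TPM in EH and 305 and 299 in wild type. The depth of the libraries differed as well; the part of depth and of these markers in the members' changes was not tested.

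**Figure D3:**
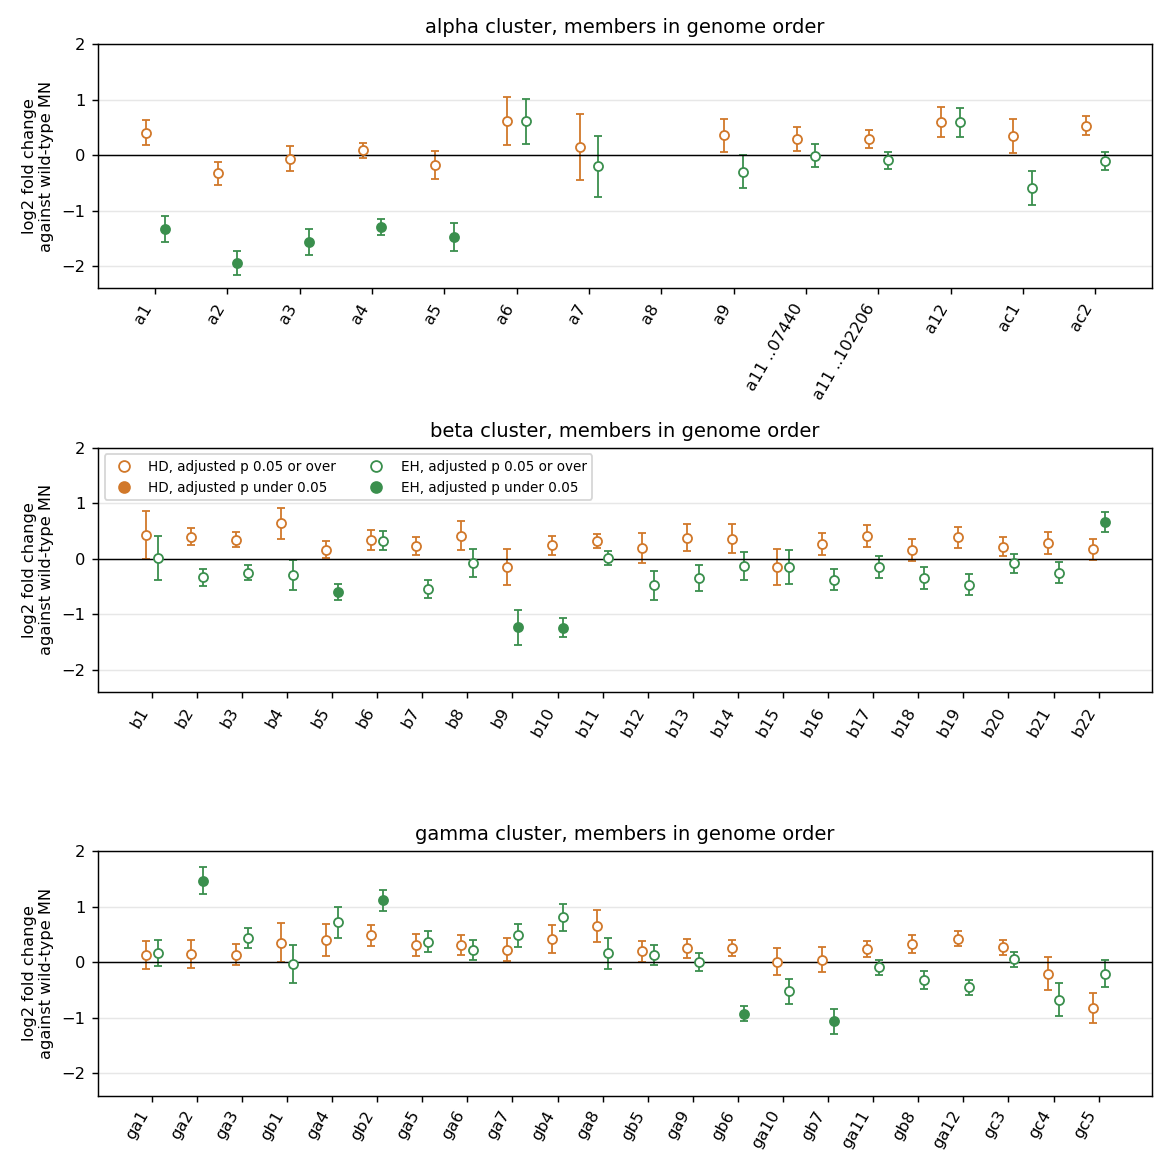
Fitted log2 fold change against wild-type MN (y axis, error bars SE of the edgeR fit) for HD and EH, members in genome order; filled points have an adjusted p under 0.05, and Pcdha8 was too low to test. No HD point is filled, while in EH Pcdha1 to Pcdha5 lie between -1.94 and -1.30 and Pcdhga2 and Pcdhgb2 at 1.47 and 1.11.

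The difference between the lines was tested directly. By edgeR, 17 members were higher and 1 lower in HD than in EH, where 11.8% of all genes were called higher and 9.43% lower. In TPM both HD libraries lay above both EH libraries for 33 members and below for 3, against 32.2% and 29.6% of all genes, and 46 of 57 log2 differences were positive, against 49.1%. These values share their libraries with the comparisons above. Pcdha4 differed by 1.39 ± 0.14 (edgeR adjusted p 0.00361), Pcdhb10 by 1.49 ± 0.17 (edgeR adjusted p 0.00470), Pcdhgb6 by 1.19 ± 0.14 (edgeR adjusted p 0.00482) and Pcdha1 by 1.73 ± 0.23 (edgeR adjusted p 0.00619). Pcdha2, Pcdha3, Pcdha5 and Pcdhgb7 differed by 1.61, 1.5, 1.29 and 1.11. Among genes not called in EH against wild type, Pcdhga12 stood at 5.91 and 5.72 TPM in HD against 3.17 and 3.19 in EH, and Pcdhb2 at 23.5 and 19.6 against 14.0 and 15.8. Pcdhb3, Pcdhb4, Pcdhb5, Pcdhb7, Pcdhb19 and Pcdhgb8 were called higher in HD as well, by 0.60 to 0.92. Pcdhac2 was the only C-type gene called (0.64 ± 0.17, edgeR adjusted p 0.0370), with HD libraries at 6.10 and 4.64 TPM and EH libraries at 3.39 and 3.46. Pcdhga2 was the gene lower in HD, by -1.31 ± 0.25 (edgeR adjusted p 0.0141). Without HD replicate 1 there were 5 calls, without HD replicate 2 there were 2 (Pcdha4 and Pcdhb10), without EH replicate 1 there were 23 and without EH replicate 2 there were 34. All 18 genes kept their direction in these fits. Beside them, 5 of 8 motor neuron markers were called lower in HD than in EH (summed level 1630 and 1422 TPM against 1918 and 2330), 4 of 4 trophoblast markers higher, 2 of 5 endoderm markers higher and 1 lower, and 2 of 10 pan-neuronal markers higher and 1 lower; their part in the members' differences was not tested.

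Factors known to act on the clusters were listed: CTCF and cohesin, which loop enhancers to the promoters, the H3K9 methylation enzymes, and the enzymes that add or remove DNA methylation. Against ES, 3 of these 30 genes were called higher and 20 lower in wild-type MN, where 38.8% and 36.5% of all genes were. Tet1, which oxidises methylated cytosine, fell by 4.91 ± 0.12 and Tet2 by 2.56 ± 0.16 on the log2 scale (edgeR adjusted p 1.01e-07 and 2.04e-06). Trim28, a corepressor that recruits H3K9 methylation, fell by 2.26 ± 0.12, and Tet3 was higher by 3.29 ± 0.22 (edgeR adjusted p 1.05e-06 and 3.29e-06). None of the 30 was called in HD against wild type, where 0.173% of all genes were. In EH 5 were called, all higher, where 9.61% of all genes were called higher and 11.6% lower. Among them were the cohesin subunit Stag2 (0.61 ± 0.09, edgeR adjusted p 0.00806) and the cohesin loader Nipbl (0.42 ± 0.08, edgeR adjusted p 0.0180), with Tet2 (0.58 ± 0.14) and Tet1 (0.43 ± 0.11). Between the lines 3 were called, all lower in HD than in EH, where 9.43% of all genes were called lower and 11.8% higher. These were Stag2 (-0.51), Nipbl (-0.43) and the cohesin regulator Pds5b (-0.34).

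Of 25 genes for proteins that bind, signal from or cut protocadherins, 20 were called higher and 2 lower in wild-type MN than in ES. Of all genes 38.8% were called higher and 36.5% lower. The receptor kinase Ret was higher by 7.58 ± 0.23, the protease Adam10, which sheds protocadherin ectodomains, by 2.37 ± 0.11 and N-cadherin (Cdh2) by 3.30 ± 0.16 on the log2 scale (edgeR adjusted p from 1.20e-07 to 7.54e-07). Neuroligin Nlgn1, also called higher, was listed at 0 in both ES libraries and stood at 10.2 and 8.63 TPM in wild-type MN. None was called in HD, where 0.173% of all genes were. In EH, where 21.2% of all genes were called, only Ptk2b, the kinase Pyk2 that gamma and alpha tails inhibit, was called, lower by -1.13 ± 0.24 (edgeR adjusted p 0.0198). It was higher in HD than in EH by 1.03 ± 0.24, as was the gamma-secretase subunit Aph1a by 0.36 ± 0.09. Of all genes 11.8% were called higher and 9.43% lower in HD than in EH.

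Other coding genes of the same stretch of chromosome 18 were called in both directions against ES. Of 33 non-member coding genes within 500 kb, 25 were tested against ES. Of these 8 were called higher and 10 lower, where 38.8% and 36.5% of all genes were. Their median log2 fold change was -0.15, against 0.02 over all genes. Taf7, a TFIID subunit whose gene lies between the beta and gamma clusters (37640491 to 37644204), fell from 66.5 and 57.1 TPM in ES to 25.3 and 32.0 in wild-type MN (-1.75 ± 0.18, edgeR adjusted p 4.46e-05). In EH 2 of 24 were called, both lower, where 11.6% of all genes were called lower and 9.61% higher. They were Hbegf and the protocadherin Pcdh12, which is not a clustered one. In HD none was called, where 0.173% of all genes were.

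The starts of the members carried H3K4me3, the mark of promoters in use or poised, and H3K9me3, a mark of silent chromatin, together. A start was counted where a peak region of the authors' list came within 1000 bases of it. In wild-type MN 51 of 58 starts had an H3K4me3 region and 50 had an H3K9me3 region, against 60.4% and 6.47% of 17491 coding gene starts on other chromosomes. Both marks lay at 45 starts (77.6%), against 5.74% of the other starts. In HD the numbers were 49 for H3K4me3, 47 for H3K9me3 and 40 (69%) for both, against 59.5%, 4.16% and 3.45%. The authors gave 1 peak list per mark and genotype, so there is no spread between replicates and no test here; in a mixed culture both marks at a start need not lie in the same cells. At 2 starts (Pcdha8 and Pcdhb14) H3K4me3 was in wild type and not in HD and at 0 the reverse, against 0.915% and 0.0686% of the other starts.

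By cluster, both marks lay at 13 of 14 alpha, 13 of 22 beta and 19 of 22 gamma starts in wild type. The H3K9me3 regions at beta starts were the weakest, with a -log10 q from 1.98 (Pcdhb1) to 7.04 (Pcdhb13). Those at gamma A and B starts ran from 6.89 (Pcdhga6) to 24.1. Of the beta starts with both marks, only Pcdhb14, Pcdhb17, Pcdhb21 and Pcdhb22 had an H3K9me3 region with a -log10 q of at least 5. The 19 gamma A and B starts each had an H3K9me3 region in both genotypes, whereas the 3 gamma C starts had none in either. Over the gamma A and B array, H3K9me3 regions covered 90.7% of 109806 bases in wild type and 87.7% in HD, with a mean enrichment over background of 9.21 and 7.08. Over the alpha variable array they covered 73.6% and 77.0%, and over the beta cluster 35.1% and 32.9%, with mean enrichments of 6.54 and 6.18, and of 4.77 and 4.40. Across the genome the same lists covered 0.684% and 0.484%. From Pcdhgc3 to the end of the constant exons no base was covered in either genotype.

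The longest H3K9me3 region of the whole list lay in the gamma cluster in each genotype. In wild type it ran from 37725089 to 37760574 on chromosome 18, 35486 bases with an enrichment of 11.98, the longest of 21120 regions and sixth by enrichment. In HD it ran from 37714503 to 37768984, 54482 bases with an enrichment of 8.09, the longest of 15427. Both hold the starts from Pcdhga8 to Pcdhga11, which all had H3K4me3 regions and were all transcribed in wild-type MN. Region length depends on how the caller joins neighbouring stretches, so the difference between the genotypes is not a change by itself.

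H3K9me3 differed between the lists at 5 starts. Regions at Pcdhac1 (enrichment 5.29), Pcdhac2 (4.08), Pcdhb1 (3.42) and Pcdhb16 (3.96) were in the wild-type list and not in the HD list, and a region at Pcdhb6 (4.42) was in the HD list and not in the wild-type list. Over all other coding starts 2.9% had a region in wild type and not in HD, and 0.589% the reverse. With 1 library per genotype these differences cannot be set against replicate spread. At 43 of the 46 starts with a region in both lists the enrichment was lower in HD. Over the whole lists the median enrichment was 3.62 in HD and 3.8 in wild type, and the highest was 14.3 and 20. Neighbouring starts can share 1 region, as those from Pcdhga7 to Pcdhga12 do in HD (8.09), so the 46 are not separate values. The RNA of Pcdhac1, Pcdhac2, Pcdhb1, Pcdhb16 and Pcdhb6 was not called different between HD and wild type.

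**Figure D4:**
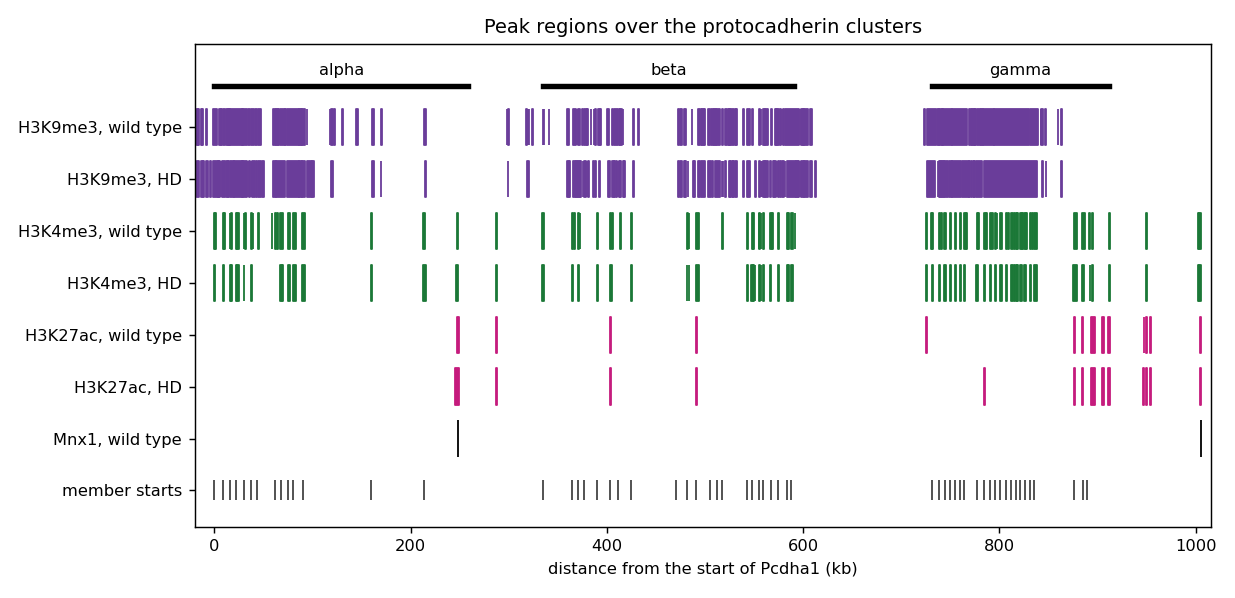
Peak regions of the authors' lists over the 3 clusters (rows: mark and genotype; x axis: distance from the start of Pcdha1 in kb), drawn at least 0.6 kb wide, with member starts as ticks. H3K9me3 fills the alpha variable and gamma A and B arrays and stops before the gamma C starts, where H3K27ac regions lie in both genotypes.

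H3K4me3 was highest at the C-type starts Pcdhac2 and Pcdhgc3. In wild type the region at Pcdhac2 had an enrichment of 64.1 and that at Pcdhgc3 of 57.7. Those at the other starts ran from 3.37 to 27.7 (Pcdhga7). The C-type starts Pcdhac1 (22) and Pcdhgc4 (22.2) lay within that range, and Pcdhgc5 had no region. In HD the values at Pcdhac2 and Pcdhgc3 were 18.2 and 23.4. Of the 49 starts with a region in both lists, 39 had the lower enrichment in HD. The lists as a whole differ in the same direction, with a median enrichment of 33.8 in wild type and 18.2 in HD, so these values cannot be told apart from that general difference.

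Genes whose start had an H3K4me3 region had the higher median RNA level, with wide overlap. Leaving out Pcdha10 and Pcdha11, whose RNA could not be assigned, the 49 genes with a region in wild type had a median of 5.39 TPM (from 0.175 to 37.4) and the 7 without one 1.48 TPM (from 0.5 to 8.66). The 7 were Pcdha7, Pcdhb4, Pcdhb7, Pcdhb9, Pcdhb12, Pcdhb13 and Pcdhgc5. Across the 49 genes, enrichment and TPM had a Spearman's rho of 0.328, and across the 21 gamma genes with a region 0.670; these are correlations across genes of the same libraries, as a description. Genes with an H3K9me3 region had a median of 4.70 TPM (48 genes) and those without one 11 TPM (8 genes) in wild type, while in HD the medians were 6.04 TPM (45 genes) and 6.46 TPM (11 genes).

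H3K27ac, a mark of active promoters and enhancers, was scarce at the starts. It lay at 4 of 58 starts in wild type and 5 in HD, against 42.7% and 43.7% of the other coding starts. In wild type the 4 were Pcdhb6 (enrichment 3.07), Pcdhb11 (3.16), Pcdhgc3 (2.22) and Pcdhgc4 (3.09), whose mean RNA levels in wild-type MN (16.2 to 37.4 TPM) were above those of all other members but Pcdhb2 (17.9 TPM). HD had the same 4 and Pcdhga7 (2.13), the next gene by RNA level in wild type. Over the other starts 0.858% had a region in wild type and not in HD, and 1.86% the reverse. No alpha start had a region. With a -log10 q of at least 5 the numbers were 1 and 2.

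**Figure D5:**
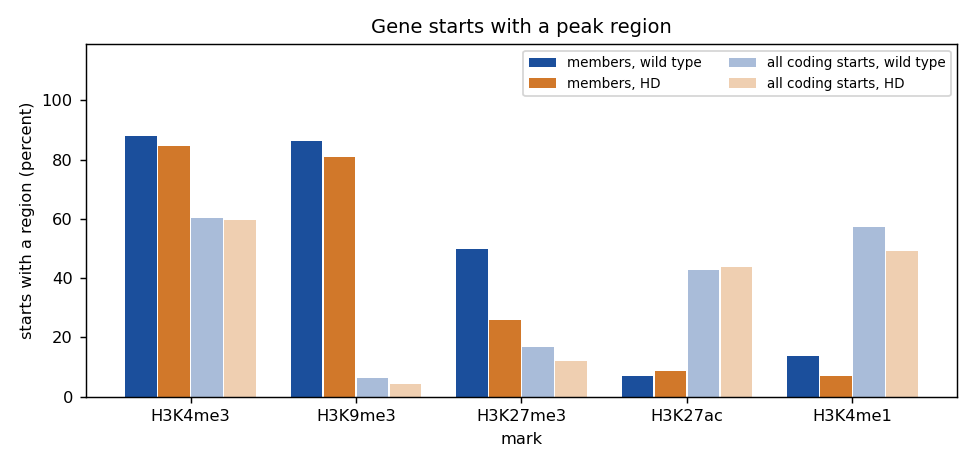
Share of gene starts with a peak region within 1000 bases (y axis, percent) for 5 marks, in the 58 members and in 17491 coding starts on other chromosomes, wild type and HD. H3K9me3 is on most member starts and on 6.47% and 4.16% of the others, whereas H3K27ac is on 4 and 5 member starts and on 42.7% and 43.7% of the others.

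The stronger H3K27ac regions lay away from the starts. Within the alpha cluster 1 region (37177563 to 37179530 in wild type, enrichment 5.24; 37176025 to 37179487 in HD, 4.97) lay 34868 and 34078 bases past the start of Pcdhac2. Between the alpha and beta clusters 1 region (37216914 to 37218393 in wild type, enrichment 4.86; 37217089 to 37218350 in HD, 4.26) lay 47344 and 47278 bases from Pcdhb1, the nearest member start. In and after the gamma constant part lay regions at 37823974 to 37827223 (4.43) and 37841120 to 37843072 (5.15), and the strongest within 100 kb downstream at 37879196 to 37880469 (10.8 in wild type, 10.9 in HD). Each of these had an overlapping region in the other genotype. The clusters are known to depend on enhancers inside and downstream of them; coordinates of those elements were not used here, so the regions were not matched to them.

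The Mnx1 regions covered 0.195% of the alpha cluster and no base of the beta or gamma cluster, against 0.122% of the genome. Of 5793 Mnx1 regions in wild-type MN, 1 lay inside a cluster: 37178295 to 37178799, 505 bases with an enrichment of 4.48, within the H3K27ac region of the alpha cluster. Another lay at 37935182 to 37935609, in the 100 kb downstream of gamma, and overlapped an H3K27ac region. That site lay at the right end of the non-member gene Diaph1 (37843601 to 37935622), in a wild-type H3K4me3 region with an enrichment of 86.6. No Mnx1 region lay within 1000 bases of a member start, but the share of other coding starts with one was not counted. The H3K27ac region at the alpha site was present in the HD list as well. None of the 13 alpha IDs tested was called different between HD and wild type, where 0.173% of all genes were. In EH, which shares the Mnx1KO label and has no ChIP-seq here, 5 of these IDs were called lower, where 11.6% of all genes were. Whether Mnx1 acts on the alpha genes at this site was not tested.

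H3K27me3, the Polycomb mark, lay at 29 of 58 starts in wild type and 15 in HD, against 16.8% and 11.9% of the other coding starts. At 17 starts it was in wild type and not in HD, at 3 the reverse; over the other starts these shares were 4.97% and 0.12%. The regions were weak, with enrichments from 2.52 to 4.50 in wild type, and with a -log10 q of at least 5 only 3 and 0 starts had one. H3K4me1 lay at 8 starts in wild type and 4 in HD, against 57.4% and 49.2%; at 4 starts it was in wild type and not in HD and at 0 the reverse (9.35% and 1.19% of the other starts). It covered 55.7% and 44.7% of the stretch from Pcdhgc3 to the end of the gamma constant exons.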

How the data were processed

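The submitters' processing notes name Trim Galore, STAR, RSEM, Bowtie2, SAMtools, featureCounts, Subread, DESeq2, MACS2 and mm10, without roles or versions. Per the file headers, the authors' gene tables hold an expected count, TPM and the posterior standard deviation of the count (a score of assignment uncertainty in counts). The authors' MACS2-style peak lists give, per mark and genotype, an enrichment ratio (fold over background) and a -log10 q-value for each region; replicates were pooled in a way not stated. The wild-type H3K27ac list carries peak names reading K27ac_KO; its label was followed.

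edgeR 4.0.16 was run on the rounded expected counts (TMM scaling, filterByExpr, quasi-likelihood, Benjamini-Hochberg adjusted p under 0.05) in R 4.3.3, with 8 libraries for ES and 6 for the comparisons among MN (4 and 3 residual degrees of freedom). SE is the log2 fold change divided by the root of its F. Alternatives used DESeq2 1.42.0, limma 3.58.1 on log2(TPM + 1), no filter, a replicate block, only the groups compared, and each library left out. The code was tested on simulated data. Replicates differed beyond sampling noise (chi-square per degree of freedom from 5.05 to 57.6).

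Sub-peaks of 1 region were collapsed to the highest enrichment. Starts came from a RefSeq table of the same build; all members were taken to run from left to right, since alpha and gamma genes share their right end and in 16 of 18 beta genes the H3K4me3 summit lay nearer the left end. Folds against 0 counts use a floor of 3 counts over the group; intervals and floors cover counting error only.

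Members and lists were chosen with earlier results of these data known. Named genes are the C-type genes, the 3 highest per cluster in wild-type MN, up to 8 each way per comparison with the smallest adjusted p, up to 4 each of the regulator and partner lists, and Mnx1; other names (low or adjacent members, those of small counts, neighbours) were chosen after their values were seen.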

Additional observations from a re-analysis of the deposited data

Results flagged for a closer look

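The change from wild type differed between the HD and EH lines for 18 of 57 members, by the edgeR test of HD against EH itself (adjusted p under 0.05). Of all genes tested 21.2% were called in that comparison. On the log2 scale, HD minus EH was 1.39 for Pcdha4, 1.49 for Pcdhb10, 1.19 for Pcdhgb6, 1.73 for Pcdha1, 1.61 for Pcdha2, 1.5 for Pcdha3, 1.29 for Pcdha5, 0.87 for Pcdhga12, 0.73 for Pcdhb2, 0.64 for Pcdhac2 and -1.31 for Pcdhga2. For all of these but Pcdhga2 both HD libraries lay above both EH libraries, and for Pcdhga2 both lay below. Both lines carry the genotype label Mnx1KO, and they differ in depth and in their trophoblast, endoderm and motor neuron markers as given above; the part of these in the differences was not tested.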

How the results depend on the processing

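The call counts kept within 1.5 times under DESeq2, no filter, limma-trend and only the groups compared. Leaving out 1 library moved them most: from 0 to 22 calls in EH against wild-type MN (13 with all libraries), from 2 to 34 in HD against EH (18), from 56 to 58 against ES (58) and 0 throughout in HD against wild-type MN; with 1 library left in a group it is assumed to vary like the others. The replicate numbers do not pair the libraries: their deviations correlated by -0.08 to 0.08 between groups. A fit with the replicate block gave 57 calls against ES, 0 in HD against wild type, 9 in EH against wild type and 14 in HD against EH. Over all genes, HD against wild-type MN gave 21 higher and 6 lower, 146 and 36 by DESeq2, 110 and 32 without the filter, 259 and 77 with only those groups, and 0 with the block or with any library left out. EH against wild-type MN gave 1496 higher and 1805 lower, 871 and 1209 with the block, and from 24 and 72 to 2894 and 3031 with a library left out; HD against EH gave 1835 and 1468, 1177 and 837 with only those groups, and from 209 and 71 to 2722 and 2487 with a library left out. For the summed levels, leaving out a library gave 131 to 384 (alpha), 108 to 257 (beta) and 7.26 to 8.05 (gamma) for wild-type MN over ES; as CPM sums the gamma ratio was 5.67. The EH ratio of alpha was 0.351 for Pcdha1 to Pcdha5 and 1.03 for Pcdha6 to Pcdha12, a split added after seeing the data. With a -log10 q of at least 5, H3K27ac lay at 1 start in wild type and 2 in HD, and H3K27me3 at 3 and 0; H3K27me3 in HD also moved to 7 with a window of 500 bases and to 8 with an overlap of at least 200 bases. Most beta starts lost their H3K9me3 region at a -log10 q of at least 5. Causes of these shifts were not tested. Low depth in HD and wild type limits what can be seen for members under about 1 TPM, and peak lists without replicates limit every comparison of marks between genotypes.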
